A study of Mus musculus with 2 samples.

Results

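The cytosolic ribosomal protein genes encode the protein part of the ribosome that translates messenger RNA in the cytoplasm. Members were taken by their name on the array: every probe named Rpl or Rps followed by a digit, or Rplp0 to Rplp2, leaving out the Rps6k kinases and pseudogenes. This gave 136 probes for 82 genes, of 41167 probes on the array, and all 82 were among the 10452 genes that entered the comparison. They comprised 43 genes of the large subunit, 30 of the small subunit, 3 of the stalk and 6 others, namely paralogues with a letter l in the name and Rps19bp1.

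The samples were skin of 25-day-old Pla2g2f-Tg/+ mice, which carry a Pla2g2f transgene, and skin of littermate controls. Pla2g2f is a secreted phospholipase A2, an enzyme that cleaves fatty acids from phospholipids, and both genotypes had a C57BL/6 background. RNA was pooled from 4 mice per genotype, and each of 2 two-colour arrays compared a transgenic with a control pool. The transgenic pool had Cy5 in array 1 and Cy3 in array 2. No label names the promoter that drives the transgene. Nor is it stated whether each array had pools of its own, so both count as 1 sample per genotype. No p-value was computed, and values describe these pools. The Pla2g2f probe was 1.45-fold higher in transgenic skin on array 1 and 1.27-fold on array 2. Whether that probe reads the transgene is not known.

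A ribosome is built from a small subunit, which reads the messenger RNA, and a large subunit, which joins amino acids. Their proteins are needed in nearly equal numbers, and their transcripts are among the most abundant of a cell, so the genes serve as a reference of high signal on an array. Most of these transcripts begin with a C followed by pyrimidines, the 5′ terminal oligopyrimidine (TOP) tract, through which growth signals by way of mTOR control their translation more than their amount. In mouse skin the dose of these proteins is visible: mutations in Rps19 or Rps20 darken the skin, and a mutation in Rpl24 gives a white belly spot.

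The start sites are shown first because the TOP tract is the sequence for which these genes are best known. RefSeq start sites on GRCm38.p6 were at hand for 62 members, in 74 entries. In 13 of these, or 17.6%, the first transcribed base was a C followed by at least 4 pyrimidines, against 2.51% of all 32851 entries. The annotated first base need not be the one used in skin, so a missing tract says only that the letters are not at that base. Each line gives 15 bases before the start and the first 15 transcribed bases, 5′ to 3′, with the pyrimidine tract in capitals.
Rpl15 (chr14:18270972-18271001, minus strand): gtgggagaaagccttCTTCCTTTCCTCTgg
Rpl28 (chr7:4792950-4792979, plus strand): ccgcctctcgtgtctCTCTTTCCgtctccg
Rpl35 (chr2:39005117-39005146, minus strand): cggccccgccctttcCTCTTTCTCTCgaac
Rpl35a (chr16:33056467-33056496, plus strand): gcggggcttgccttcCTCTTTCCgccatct
Rpl38 (chr11:114668565-114668594, plus strand): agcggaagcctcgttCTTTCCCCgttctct
Rpl14 (chr9:120571502-120571531, plus strand): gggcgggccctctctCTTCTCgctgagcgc
Rplp2 (chr7:141447636-141447665, plus strand): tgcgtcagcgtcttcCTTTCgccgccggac
Rps10 (chr17:27635230-27635259, minus strand): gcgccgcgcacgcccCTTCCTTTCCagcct
Rps15a (chr7:118116133-118116162, minus strand): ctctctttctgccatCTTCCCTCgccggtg
Rps18 (chr17:33955651-33955680, minus strand): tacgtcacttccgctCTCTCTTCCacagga
Rps21 (chr2:180257364-180257393, plus strand): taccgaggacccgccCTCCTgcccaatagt
Rps27 (chr3:90213634-90213663, minus strand): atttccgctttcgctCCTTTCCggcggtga
Rps6 (chr4:86857353-86857382, minus strand): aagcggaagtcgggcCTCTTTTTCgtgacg

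The tract did not go with a common ratio. These 13 genes spanned mean log2 ratios of transgenic over control from -0.29 (Rpl15) to 0.19 (Rplp2), with a median of -0.11. The 49 members with a listed start and no such tract had a median of -0.13. Over the 300 bases around the start (250 before, 50 after), the letters CCGGAAG, the core that ETS factors such as GABP recognise, occurred on either strand in 33.8% of member entries and 8.86% of all entries. The letters AAGATGGC, the core of a YY1 site, occurred in 10.8% and 2.75%. A match of letters is a description and no binding site.

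Most ribosomal protein genes have many processed copies in the mouse genome, and 12 members had a probe that shared a run of at least 20 bases with a probe of another name. The array therefore read several of these transcripts more than once, and such probes may not tell a gene from its copy. The shared run is in capitals below, 5′ to 3′, and positions are on mm8, as designed. The pairs were chosen after their values were seen, to show a member below 0 and members near 0.
Rpl15 (chr14:17062261-17062320, minus strand): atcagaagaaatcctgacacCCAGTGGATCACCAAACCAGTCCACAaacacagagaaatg
Gm5292, a predicted copy of Rpl15 (chr5:44232251-44232310, minus strand): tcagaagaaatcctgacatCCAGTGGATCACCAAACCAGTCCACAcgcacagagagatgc
Rps20 (chr4:3761639-3761698, minus strand): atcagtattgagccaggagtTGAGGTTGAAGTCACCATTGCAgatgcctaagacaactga
Gm6607, sharing sequence with Rps20 (chr9:22080582-22080641, minus strand): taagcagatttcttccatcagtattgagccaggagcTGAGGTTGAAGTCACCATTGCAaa
Rpl36 (chr17:56299093-56299152, plus strand): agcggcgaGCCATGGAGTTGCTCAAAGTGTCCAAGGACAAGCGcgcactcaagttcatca
predicted copy of Rpl36 (chr4:116337929-116337988, minus strand): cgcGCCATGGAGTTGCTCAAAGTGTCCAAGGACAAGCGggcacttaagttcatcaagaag

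The members of a pair read alike. Rpl15, a large subunit protein, stood at -0.30 on array 1 and -0.28 on array 2, and the probe for Gm5292, which shares 26 bases with it, at -0.23 on array 1 and -0.38 on array 2. Rps20, a small subunit protein, stood at 0.081 on array 1 and -0.10 on array 2, and Gm6607 at 0.012 on array 1 and -0.13 on array 2. Rpl36, of the large subunit, stood at 0.035 on array 1 and 0.082 on array 2, and its predicted copy at 0.030 on array 1 and 0.15 on array 2. Over all 17 such pairs, the median difference of the mean ratios was 0.034, and the largest 0.15. The pairs are not separate, since several reuse the same Rpl17 probe. For Rpl5, Rpl18 and Rpl17, a partner probe lies at the member's own locus, so it need not read a copy. Among the members themselves, means spanned -0.49 to 0.23, with a standard deviation of 0.14, close to the largest pair difference. A range over 82 genes is not comparable with a difference between paired probes.

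Ribosomal protein transcripts differed little between the genotypes and leaned slightly to lower values in transgenic skin. The median of the mean log2 ratio over the 82 genes was -0.12, which is 0.923 times the control level. It was -0.11 on array 1 and -0.14 on array 2, while over all 10452 genes it was 0.00097 and -0.0041. Below 0 on both arrays were 54 of 82 members (65.9%), against 35.7% of all genes. Above 0 on both were 8 members (9.76%), against 35.3% of all genes, and the arrays gave opposite signs for 20.

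No member, 0 of 82, was at least 2-fold apart the same way on each array, the size used here to call a gene, beside 5.41% of all genes. At 1.5-fold it was again 0, beside 12.1% of all genes. All 82 means lay within 0.5 of 0 on the log2 scale. Their standard deviation was 0.14, against 0.60 over all genes. In whole skin, fewer cells of a type and less RNA per cell cannot be told apart.

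**Figure D1:**
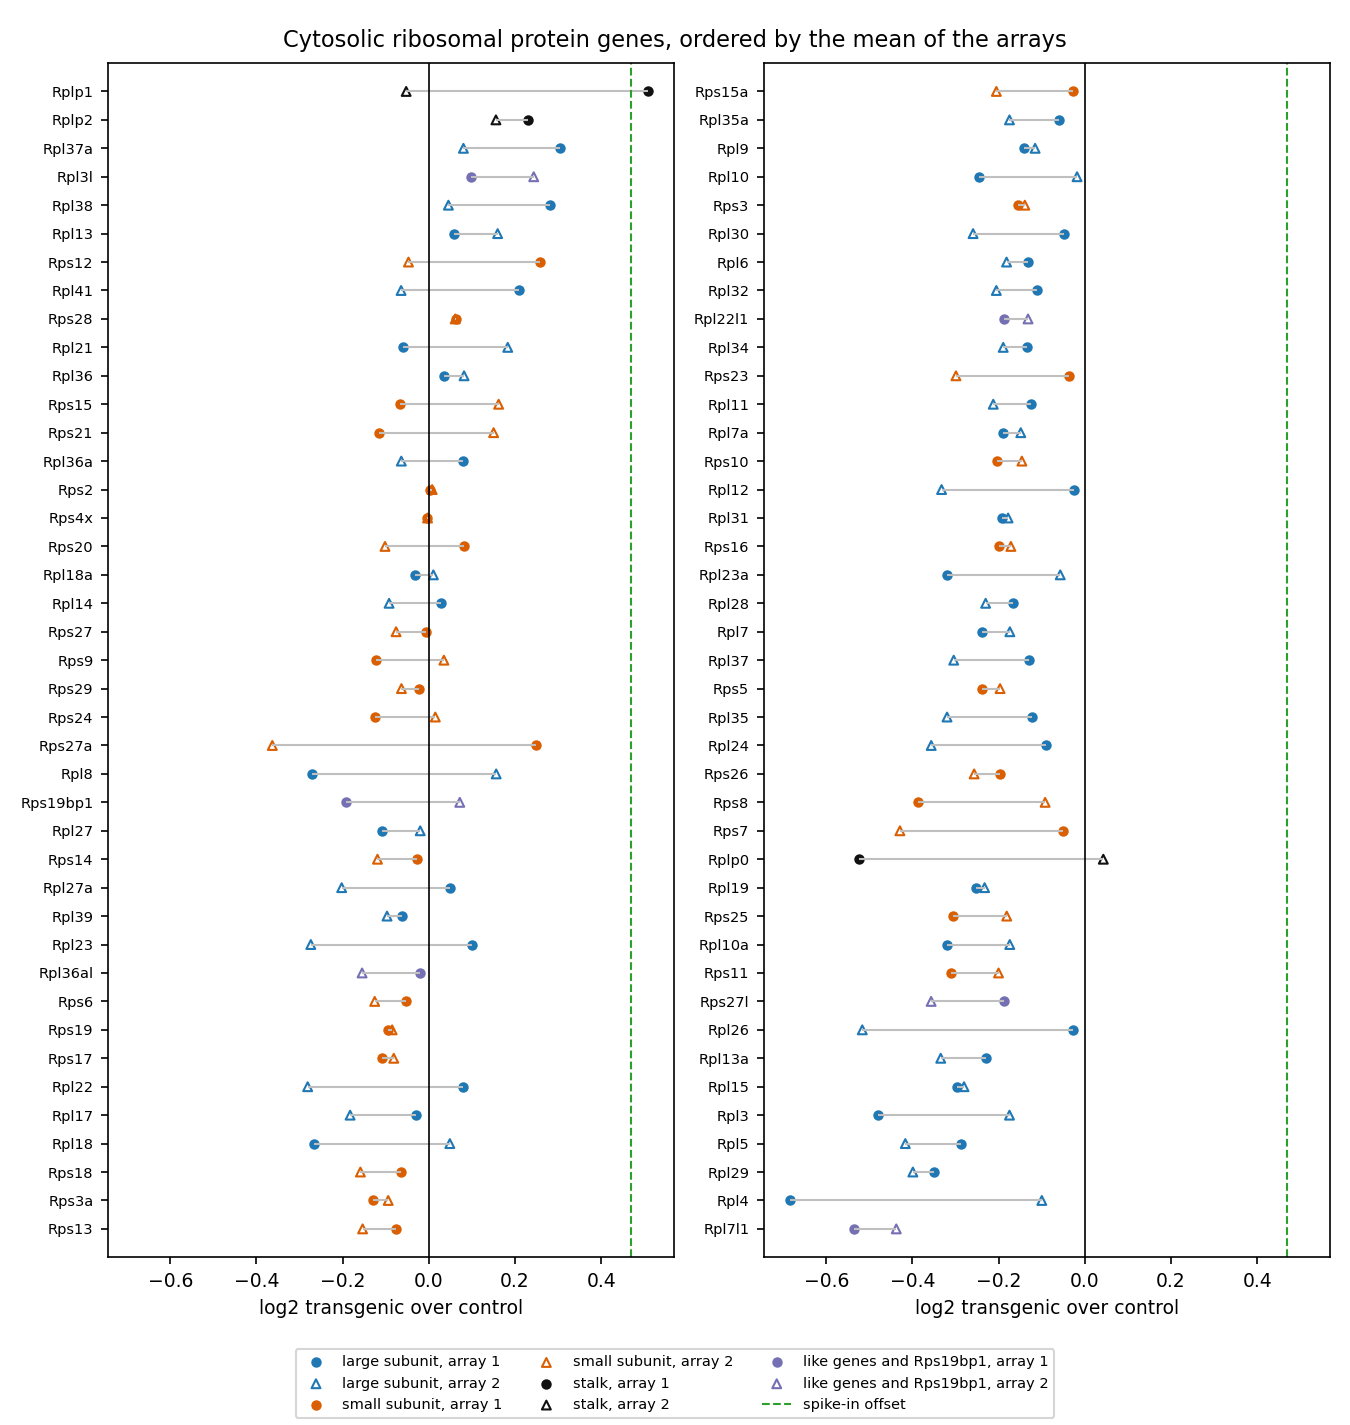
Log2 ratio of transgenic over control skin for each ribosomal protein gene, ordered by the mean of the arrays (filled circle, array 1; open triangle, array 2; 1 probe per gene; a grey line joins the arrays), with the spike-in offset as a dashed line. Most symbols lie left of 0, from -0.49 (Rpl7l1) to 0.23 (Rplp1) by the mean, and for several genes the arrays lie far apart.

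Members were among the brightest probes: 121 of 136 probes were well above background, in each channel of array 1, and 71 of the 82 genes were among the 1046 genes of highest signal. The other 975 of those 1046 had a median of 0.035, 33.1% of them lay below 0 on both arrays, and 6.36% were called. Their standard deviation was 0.55. Within the members, the mean ratio correlated with signal at 0.32 over 82 genes (Pearson, across genes of the same arrays, so a description). It was 0.42 on array 1 and 0.052 on array 2. The 27 members of highest signal had a median of -0.057, the next 27 -0.12 and the 28 dimmest -0.16.

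**Figure D2:**
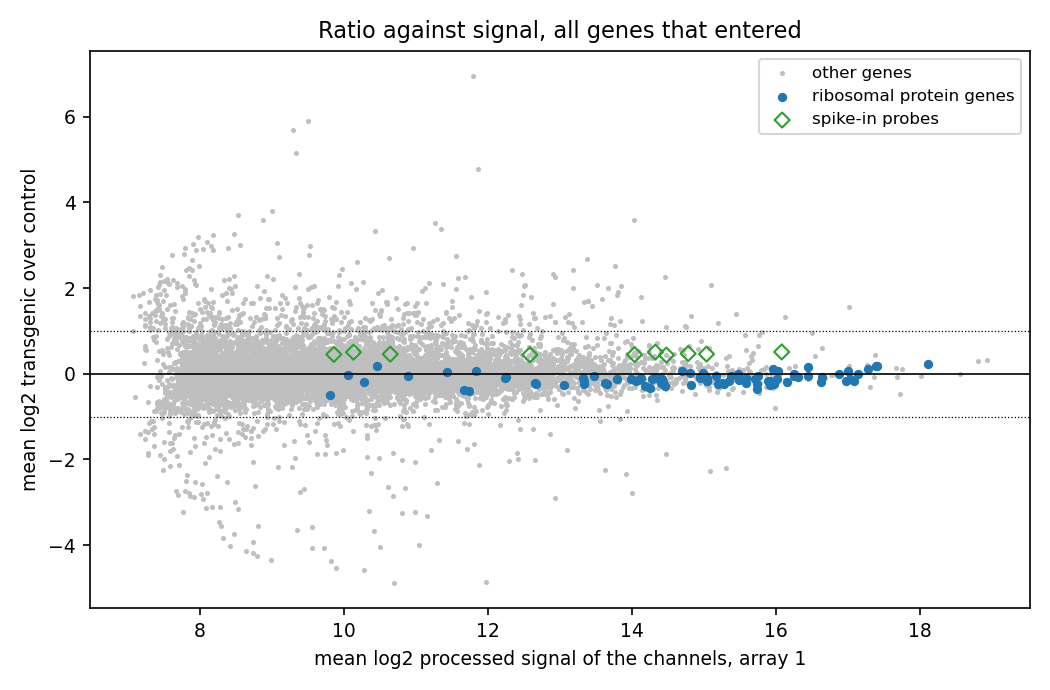
Mean log2 ratio of transgenic over control against the mean log2 processed signal of array 1 for all 10452 genes (grey), the 82 ribosomal protein genes (blue) and the 10 spike-in probes (green diamonds), with dotted lines at 2-fold. Members sit in a narrow band just under 0 at high signal, and the spike-in probes lie above them at every signal level, between 0.44 and 0.51.

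In the large subunit, 29 of 43 genes lay below 0 on both arrays and 4 above, namely Rpl37a, Rpl38, Rpl13 and Rpl36. The median was -0.12 on array 1 and -0.17 on array 2. The lowest was Rpl4, which reaches with a long loop into the peptide exit tunnel, at -0.69 on array 1 and -0.10 on array 2. Its arrays differ by 0.59, so most of its low mean rests on array 1. Rpl29, whose loss slows growth in mice, stood at -0.35 on array 1 and -0.40 on array 2, and its 4 probes gave means from -0.43 to -0.37. Rpl29 is thus low on every probe and both arrays. Rpl5, which carries the 5S ribosomal RNA and binds Mdm2 when ribosome assembly fails, stood at -0.29 on array 1 and -0.42 on array 2.

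Rpl3, which lines the peptidyl transferase centre, stood at -0.48 on array 1 and -0.17 on array 2. Rpl15 was given above, and its arrays differed by only 0.017. Rpl13a, known for the GAIT complex that represses inflammatory transcripts in myeloid cells, stood at -0.23 on array 1 and -0.33 on array 2. Rpl26, which binds the p53 transcript, stood at -0.027 on array 1 and -0.52 on array 2, a value set by array 2. Of these low genes, Rpl29, Rpl5, Rpl15 and Rpl13a lay below -0.2 on each array, while Rpl4, Rpl3 and Rpl26 did so on 1 array.

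At the other end of the large subunit, Rpl37a stood at 0.30 on array 1 and 0.080 on array 2. Rpl38, whose loss in mice alters translation of Hox transcripts, stood at 0.28 on array 1 and 0.046 on array 2. Rpl13 stood at 0.060 on array 1 and 0.16 on array 2, yet its dimmer probes gave means down to -0.19. Rpl41, the shortest ribosomal protein, stood at 0.21 on array 1 and -0.064 on array 2. The first 3 were above 0 on both arrays.

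The stalk is a flexible arm of the large subunit, in which Rplp0 holds dimers of Rplp1 and Rplp2 and recruits the elongation factors. Rplp1 had the highest mean of all members but stood at 0.51 on array 1 and -0.053 on array 2, so its arrays disagree in sign. Its processed signal on array 1 was 335410 in the transgenic and 235702 in the control channel. Rplp2 stood at 0.23 on array 1 and 0.16 on array 2, above 0 on both. Rplp0 stood at -0.52 on array 1 and 0.043 on array 2. A further probe pair for the same gene, under its older name Arbp, gave means of -0.064 for the brighter and -0.18 for the dimmer probe, and on array 1 they stood at -0.037 and -0.19, so the low value of the Rplp0 probe there was not shared. Stalk genes included 2 of the 4 members whose arrays differed by more than 0.55.

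In the small subunit, 21 of 30 genes lay below 0 on both arrays and 2 above, namely Rps28 and Rps2. Rps2 stood at only 0.0039 on array 1 and 0.0078 on array 2, and its dimmer probe above background at -0.33 and 0.18. Rps28 stood at 0.064 on array 1 and 0.061 on array 2, the next probe at 0.0029 and 0.094, and the dimmest at -0.034 and -0.042. Their place above 0 thus rests on the probe taken. Medians of the small subunit were -0.072 on array 1 and -0.11 on array 2. The means spanned -0.26 to 0.11, a standard deviation of 0.099 against 0.14 in the large subunit, and none was among the 8 lowest members. Rps12 was the highest, at 0.26 on array 1 and -0.047 on array 2. Rps27a, made as a fusion with ubiquitin, stood at 0.25 on array 1 and -0.36 on array 2, the largest difference between arrays of any member (0.61).

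The genes whose mutation darkens or spots mouse skin lay inside the group. Rps19 stood at -0.095 on array 1 and -0.085 on array 2, Rps20 at 0.081 on array 1 and -0.10 on array 2 and Rpl24 at -0.090 on array 1 and -0.36 on array 2. They were picked for that background and not for their values. Rps6, the small subunit protein that S6 kinase phosphorylates, stood at -0.053 on array 1 and -0.13 on array 2. All 4 were within 0.4 of 0 on each array.

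Among the paralogues were the lowest member of all and 1 of the 4 highest. Rpl3l, a form of Rpl3 made in striated muscle, stood at 0.098 on array 1 and 0.24 on array 2, while Rpl3 lay below 0 on both arrays, and the difference between them was 0.58 on array 1 and 0.42 on array 2. Skeletal muscle markers had a median of 0.095 over 15 of 15 genes, with -0.0020 on array 1 and 0.12 on array 2. Above 0 on both arrays were 6 of them, and 3 were below. Their summed signal on array 1 was 1111250 in the transgenic and 950336 in the control channel. Of these sums Myh1 gave 114654 and 44814, and Myh2 47720 and 17447. By the mean, the myosin genes Myh1 stood at 1.32, Myh2 at 1.34 and Myh4 at -0.46. The part of muscle content in the Rpl3l value was not tested.

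Rpl7l1, a paralogue of Rpl7, had the lowest mean of all members, at -0.54 on array 1 and -0.44 on array 2. Its processed signal was 748 in the transgenic and 1085 in the control channel of array 1. Rpl7 stood at -0.24 on array 1 and -0.17 on array 2, and Rpl7l1 minus Rpl7 was -0.30 on array 1 and -0.26 on array 2. The dimmer Rpl7 probes stood at -0.42 and -0.43 on array 1 and at -0.24 and -0.39 on array 2. Rpl7l1 lay below each of them, but the size of the difference depends on the Rpl7 probe taken. Rps27l, which p53 can induce, stood at -0.19 on array 1 and -0.36 on array 2 and Rps27 at -0.0058 on array 1 and -0.076 on array 2. In these pairs and in Rpl3l against Rpl3, the difference had the same sign on both arrays.

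By the brightest probe and the mean of the arrays, the other pairs were closer. Rpl22l1 stood at -0.19 on array 1 and -0.13 on array 2. Rpl22, which T cell development needs, stood at 0.079 on array 1 and -0.28 on array 2, so their order turned between the arrays. A dimmer Rpl22 probe stood at 0.064 on array 1 and 0.12 on array 2. It lay above Rpl22l1 on both arrays, so the turned order rests on the probe taken. Rpl36al stood at -0.021 on array 1 and -0.15 on array 2 and Rpl36a at 0.079 on array 1 and -0.064 on array 2, the paralogue lower by 0.10 and 0.091. A further Rpl36a probe stood at 0.0061 on array 1 and -0.018 on array 2, above Rpl36al on both. Another stood at -0.065 on array 1, below Rpl36al, and at 0.021 on array 2. The order on array 1 thus rests on the probe taken. Rps19bp1 is no ribosomal protein but binds Rps19 and entered by its name. It stood at -0.19 on array 1 and 0.072 on array 2. No probe of a pair shared a run of more than 6 bases with its partner's probe. Probes were not compared with the partner's whole transcript, so whether a probe also reads its partner was not tested.

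The order of the members was only weakly repeated. Across the 82 genes the arrays correlated at 0.24 (Pearson) and 0.25 (Spearman), against 0.80 and 0.61 over all genes, as a description across genes of the same arrays. The arrays of a member differed by a median of 0.12, against 0.23 over all genes and 0.16 over the other 975 of the 1046 genes of highest signal. The members' means had a standard deviation of 0.14, close to that 0.12, against 0.60 over all genes. The low correlation therefore does not mean that members repeated worse in size than other genes. Probes printed 10 times on an array had a median standard deviation of 0.094 on array 1 and 0.097 on array 2. Neighbours in the order are therefore not separated by these data. Rpl7l1, Rpl29 and Rpl5 at the bottom and Rplp2 and Rpl3l at the top kept their side on both arrays.

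**Figure D3:**
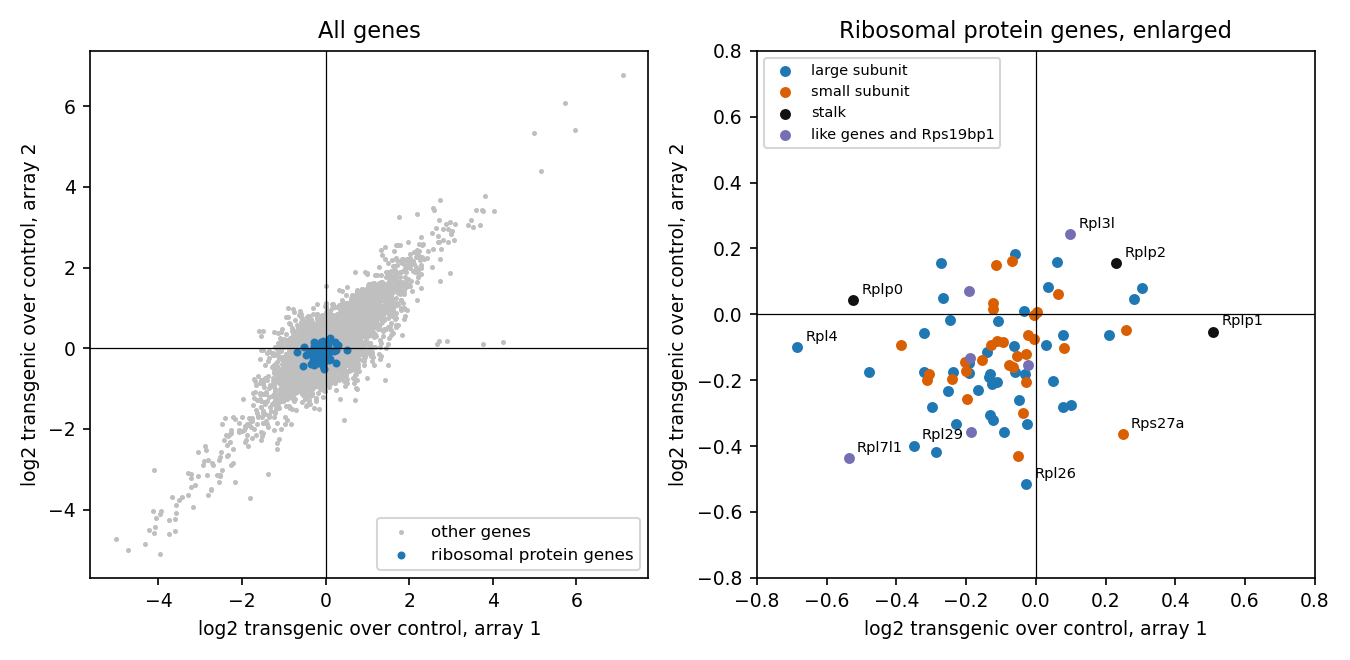
Log2 ratio of transgenic over control on array 2 against array 1, for all genes (left; members in blue) and for the ribosomal protein genes alone on an enlarged scale (right, by class). Over all genes the arrays follow each other (r = 0.80), whereas members form a cloud without much slope (r = 0.24) that lies mainly in the lower left part.

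Several probes gave a second reading of the same genes. In 30 members with more than 1 probe above background (69 probes), the probes of a gene spanned a median of 0.10 and at most 0.37, the last in Rps24. Within-gene standard deviation was 0.089. The brightest probe had a higher ratio than the dimmest in 25 of 30 members (83.3%), by a median of 0.094. Of 2330 other genes with several probes, 57.2% did so, with a median of 0.033. On array 1 it held in 23 members and on array 2 in 19. Taking all 121 probes instead of the brightest per gene moved the median from -0.12 to -0.15.

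**Figure D4:**
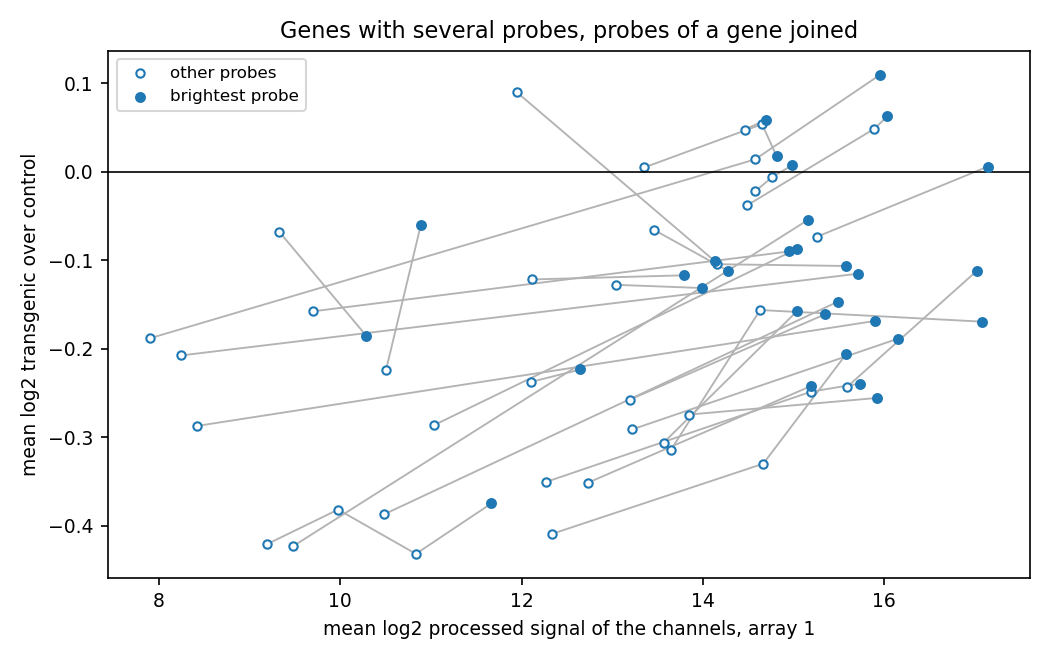
Mean log2 ratio of transgenic over control against mean log2 processed signal on array 1 for the 30 ribosomal protein genes with several probes above background; lines join probes of a gene and the filled circle is its brightest probe. Most lines climb to the right: the brightest probe is the higher in 25 of 30 genes.

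The scale on which these values stand was set by the dye normalisation of the scanner software, and members took part in setting it. Of the 136 member spots on array 1, 117 (86.0%) were used as normalisation features, against 22.7% of the other spots. Among spots above background, 115 of 121 member spots were used, against 56.7% of the others. How far this drew the members to 0 was not tested. The spike-ins, synthetic RNAs added to the samples, gave a second zero, read from the same normalised values. That zero assumes that both pools got the same spike-in per amount of RNA, which was not checked. The 10 spike-in probes had designed ratios that follow the dye and spanned -2.68 to 3.56 on array 1, so only the mean of the dye-swapped arrays is free of the design. That mean was 0.44 to 0.51 per probe, on average 0.47 ± 0.027 (SD over 10 probes). The scanner software itself fitted observed to expected spike-in ratios on array 1 with an intercept of 0.55 in log2 and a slope of 0.926.

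Against the spike-ins the members stood lower. With the offset of 0.47 taken off, the member median was -0.59, or 0.666 times control, and all 82 means were below 0. The whole array moved with it: the median of all genes became -0.48. On this scale 81 members lay below 0 on both arrays, beside 78.6% of all genes, and 27 were at least 1.5-fold lower on each array, beside 23.7%. At 2-fold the count stayed at 0. The member median minus the median of all genes was -0.11 on either scale. What set the offset was not tested.

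Other genes of the translation machinery gave the context. Among ribosomal proteins outside the name rule, Fau, which yields Rps30, stood at 0.12 on array 1 and 0.15 on array 2 and Rpsa at -0.53 on array 1 and -0.016 on array 2. Rack1, a scaffold on the small subunit, stood at 0.12 on array 1 and -0.30 on array 2. None of these reached 1.5-fold. The other transcripts known for a TOP tract had a median of -0.11 over 7 genes, 6 of them below 0 on both arrays. Hnrnpa1, an RNA-binding protein, was the lowest at -0.20 on array 1 and -0.66 on array 2, and Npm1, which chaperones ribosome assembly in the nucleolus, stood at -0.22 on array 1 and -0.43 on array 2.

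Translation factors lay lower than the ribosomal proteins. Their median was -0.23 over 40 genes, with 27 below 0 on both arrays and 2 above, Eif1 and Eif3c. Eif2s2 and Eif2s1, the beta and alpha subunits of the factor that brings the initiator tRNA, were the lowest. Eif2s2 stood at -0.69 on array 1 and -0.92 on array 2, and Eif2s1 at -0.68 on array 1 and -0.70 on array 2, both at least 1.5-fold lower on each array. Abce1, which splits ribosomes for recycling, stood at -0.43 on array 1 and -0.60 on array 2.

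Ribosome biogenesis genes lay lower still, with a median of -0.30 over 39 of 45 genes, 31 below 0 on both arrays and 4 above. The genes above, named after their values were seen, were Eif6 (mean 0.41), Sbds (0.25), Pes1 (0.061) and Bysl (0.012). Eif6 keeps the subunits apart, and Sbds helps to release it from the large subunit. Ddx21, a nucleolar helicase, stood at -0.92 on array 1 and -0.25 on array 2. Gnl3, a nucleolar GTPase of dividing cells, stood at -0.49 on array 1 and -0.64 on array 2, and Nop2, which methylates ribosomal RNA, at -0.70 on array 1 and -0.38 on array 2. None of the list reached 1.5-fold on each array. Npm1 is in this list and in that of TOP transcripts.

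Mitochondrial ribosomal proteins, which serve the separate ribosome of mitochondria, were centred near 0. Their median was -0.027 over 75 of 78 genes, with 19 below 0 on both arrays and 19 above. Their standard deviation, 0.16, stood beside 0.14 in the cytosolic set. Mrpl19, of the large mitochondrial subunit, was the lowest at -0.47 on array 1 and -0.47 on array 2. The difference between the medians of the cytosolic and mitochondrial sets was not tested.

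The list of genes that control growth and translation had a median of -0.021 over 21 of 26 genes and a wide range. Mycn, a Myc family factor known to raise ribosome production, stood at -0.86 on array 1 and -1.47 on array 2. Mycl, of the same family, stood at -0.87 on array 1 and -1.02 on array 2. Myc itself lay the other way, at 0.36 on array 1 and 0.27 on array 2. Their partner Max stood at 0.19 on array 1 and -0.039 on array 2. Eif2ak2, the kinase that stops initiation on sensing double-stranded RNA, stood at 1.67 on array 1 and 0.74 on array 2, with a control channel not well above background. None of the list was called at 2-fold. The p53 response genes, which ribosome assembly stress can induce, had a median of -0.0043 over 11 genes, with 3 above (Bbc3, Sesn1 and Trp53) and 3 below 0 on both arrays (Cdkn1a, Gadd45a and Mdm2, the last with a transgenic channel not well above background). Bbc3 stood at 0.52 on array 1 and 0.53 on array 2.

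Genes in common use as references lay mostly above 0. The housekeeping list had a median of 0.15 over 12 of 14 genes, with 7 above and 1 below 0 on both arrays. B2m, the light chain of class I histocompatibility molecules, was called higher, at 1.51 on array 1 and 1.21 on array 2. Ppia, cyclophilin A, stood at -0.42 on array 1 and -0.19 on array 2. The medians of the housekeeping and the ribosomal protein genes thus lay on opposite sides of 0 on the scanner's scale. With the spike-in offset taken off both lay below 0, at -0.32 for the housekeeping genes.

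Cell division genes lay lowest of the lists on growth and translation. All 26 were below 0 on both arrays, with a median of -0.41, and none was called at 2-fold. Cdk1, the kinase that starts mitosis, stood at -1.06 on array 1 and -0.78 on array 2, and Kif11, a spindle motor, at -0.69 on array 1 and -1.09 on array 2. The order of medians ran from cell division through ribosome biogenesis and translation factors to the ribosomal proteins. That order held on each array. It is a description of lists chosen with earlier results of these data known.

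**Figure D5:**
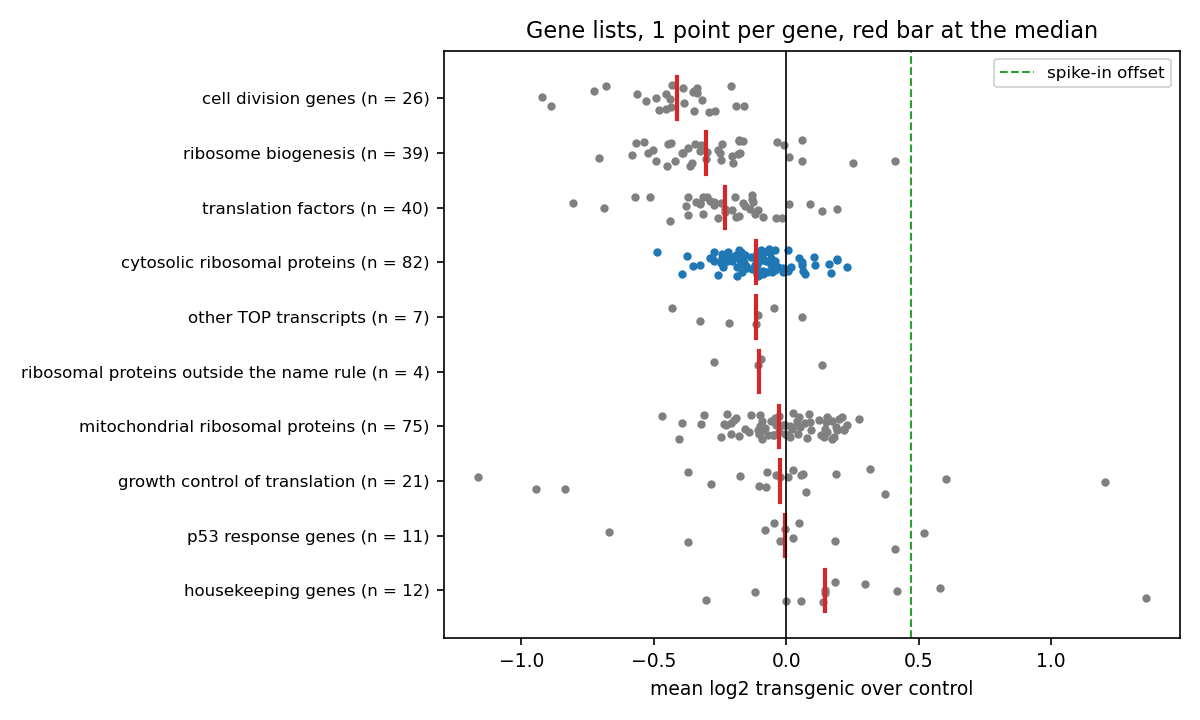
Mean log2 ratio of transgenic over control for each gene of the lists on ribosomes, translation and growth (1 point per gene, red bar at the median, cytosolic ribosomal proteins in blue, spike-in offset dashed); other TOP transcripts are those known for a 5′ terminal oligopyrimidine tract. Medians climb from -0.41 for cell division genes to -0.12 for the ribosomal proteins and 0.15 for housekeeping genes.

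Markers of several cell types of skin differed more between the pools than the ribosomal proteins did. Keratinocyte markers were present in both pools, with a median of 0.52 over 10 genes. All 10 hair shaft markers that entered were called lower, beside 176 of all 10452 genes. Hoxc13, Krt31, Krt34 and Krt86 among them entered through the control channel alone, since their transgenic signal was too close to background. Such an entry favours a lower ratio on array 1, so their calls are no separate support. The median over the other 6 was -2.24. The 10 had a summed signal on array 1 of 13177 in the transgenic and 93262 in the control channel. Over all 10452 genes, 389 were called higher. Sebaceous markers were called higher in 4 of the 4 genes that entered, with sums of 60883 and 12064. The list held 7, and Awat1, Awat2 and Mc5r did not enter. For adipocyte markers it was 6 of 7, with sums of 359619 and 112369, and Lep did not enter. For macrophage and dendritic cell markers it was 5 of 8, with sums of 35383 and 14931, and Cd207 and Cd68 did not enter.

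Of the neutrophil list S100a8 and S100a9, which keratinocytes also make, were called higher, S100a8 with a control channel not well above background, while Mpo, Elane, Csf3r and Cxcr2 were not well above background. Of the T cell list Cxcr6 and Cd3e entered, both through the transgenic channel alone, and Cxcr6 was called higher. Fibroblast markers had a median of 0.31 over 8 genes and skeletal muscle markers 0.095 over 15. Erythroid markers had a median of 0.94 over 2, of which Alas2 entered through the transgenic channel alone. The part of these shifts in the ribosomal protein values was not tested.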

How the data were processed

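The deposited intensity values of array 1 came from Agilent Feature Extraction 9.5.1.1, with background and spatial trends removed, linear and LOWESS dye normalisation, and surrogates for dim spots, per the file headers. Surrogates compress ratios near background. The deposited value table holds log10 ratios of Cy5 over Cy3, 1 column per array. For array 1 it matched the scanner file's signals at all 43790 features within 1e-08. For array 2, whose scanner output was not used here, direction was taken from the labels' dyes. The deposited columns correlated at -0.58 over 41534 features, the sign of a dye exchange, and their medians were 0.0145 and -0.0243, so neither was centred on its median. The scanner error (log10, per the file headers) of a spot rests on a preset 10% per channel and is not a measured spread.

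Values were turned to log2 transgenic over control, and 29 outlier spots of array 1 were left out. Probes well above background in either channel of array 1 entered, and the brightest stood for its gene. Called means 2-fold or more, in 1 direction, on both arrays. The size rule was run on simulated ratios with known changes, as a check of the code and not of how often it misses a change. Probes other than the members were named through RefSeq (GRCm38.p6); 8072 kept the array's name. Python 3.11.15, pandas 2.3.3, R 4.3.3 and limma 3.58.1 (array 1 with normexp, offset 50, and loess, as an alternative) were used. Genes were named by rule: the 8 highest and lowest members, the stalk, paralogues with their partners, the 3 whose arrays differ most and up to 4 per other list with the largest absolute mean. Rpl14, Rpl24, Rpl28, Rpl35, Rpl35a, Rpl36, Rps6, Rps2, Rps10, Rps15a, Rps18, Rps20, Rps21, Rps24 and Rps28, and list genes outside the rule, were added for their sequence, background, probes or place after values were seen. The values of 1 listed gene are not reported here. The members and lists were chosen with earlier results of these data known. The number of arrays limits the precision, and slide or scan could not be tested as a batch.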

Additional observations from a re-analysis of the deposited data

How the results depend on the processing

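No alternative called a member at 2-fold, on either array alone, with any filter or scale tried. Centring each array on its spike-in median, which rests on the probes nearest to the middle of the designed ratios, moved the member median from -0.12 to -0.60, and the common offset, chosen after the data were seen, to -0.59; both left 0 members above 0 on both arrays in place of 8. With array 1 by normexp and loess the median was -0.14, 8 became 4, and 163 genes in all were called instead of 565. Requiring both channels above background called 329 and left no T cell marker, and a size of 1.5-fold 1260. Using probes in place of genes gave a median of -0.15. Leaving out 1 array gave medians from -0.14 to -0.11, with 18 members above 0 on either array alone, 779 to 841 genes called, and spike-in medians of 0.37 to 0.59, which on 1 array also carry the designed ratios. The cause of these shifts was not tested, except that a spike-in centre lowers every value alike. Of 243 values of named members under the alternatives, 183 moved by less than the spread between the arrays and 60 by more, 54 of these under a spike-in centre. No paired analysis was possible because each array is itself a ratio of a transgenic to a control pool.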

Other observations

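Transcripts that the array describes as similar to a ribosomal protein are mostly predicted copies. They, and the genes named in the next paragraphs, were chosen after the data were seen. Of 41 such probes, 36 were above background, and 26 of these lay below 0 on both arrays. Their median was -0.16, with means from -0.38 (a copy of Rpl15) to 0.092 (a copy of Rpl36). Both parent genes lay on the same side of 0. For Rplp1, whose own probe stood at 0.51 on array 1 and -0.053 on array 2, the array held 2 copies. Rplp1-ps1 stood at 0.030 on array 1 and 0.14 on array 2, and a predicted copy at -0.093 and 0.22, so neither shared the high value of array 1.

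A paralogue hidden under another array name had a higher mean than any member. Rpl39l, a paralogue of Rpl39 known from testis, had 1 probe above background, at 1.01 on array 1 and 0.60 on array 2, with processed signals of 1632 in the transgenic and 812 in the control channel. Its other probe was not well above background. Rpl39 itself stood at -0.063 on array 1 and -0.097 on array 2. Rps4l, under another array name too, stood at -0.18 on array 1 and 0.12 on array 2.

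The S6 kinase family, whose names begin like those of the members, was left out by the rule. Of 10 Rps6k genes with a probe, 5 entered. Rps6ka4 stood at 0.56 on array 1 and 0.35 on array 2. Rps6ka3 stood at -0.81 on array 1 and -0.86 on array 2, with a transgenic channel not well above background.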
